A study of Homo sapiens with 3 samples.

Results

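Double-positive and single-positive BxPC-3 cells were compared gene by gene at the same number of molecules per cell. BxPC-3 is a widely used carcinoma line that came from a human pancreatic duct tumour. Cells stably marked with EGFP and cells stably marked with mCherry were mixed in equal parts and held in suspension to induce cell-in-cell structures, and were then sorted. Cells with both signals formed the double-positive group, cells with either signal alone formed the single-positive group, and parental BxPC-3 cells were sequenced beside them. The labels do not say whether both colours were pooled in the single-positive library, or whether the expansion they mention came before or after the sort. Each group had 1 library, so nothing given here was checked against a replicate and the groups could not be tested against each other.

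Cells were barcodes with at least 6500 unique molecular identifiers (UMIs, each counting 1 captured RNA molecule), at least 500 genes and at most 20% of UMIs from the mitochondrial genome. This gave 1291 single-positive and 1940 double-positive cells, 3231 of the 5640 cells of all 3 libraries, and 2409 parental cells. Every cell was thinned at random to 6500 UMIs. The share of expressing cells is the percentage of cells with at least 1 UMI of a gene after thinning, and the level is the mean number of thinned UMIs per expressing cell. The mean over all cells joins these quantities. Intervals are exact Clopper-Pearson intervals at 95% and cover counting error only.

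In a cell-in-cell structure a whole live cell lies inside another. In entosis, a form seen when epithelial cells lose their attachment to a matrix, E-cadherin junctions hold the cells together while RhoA, ROCK and myosin contract the cell that enters, and the inner cell is often killed and digested by lysosomes of its host. Carcinomas, pancreatic carcinoma among them, contain such structures. A sorted event with both colours can be a cell-in-cell structure, and it can also be any other particle that carries both signals. Neither fluorescent protein has a feature in the count matrices, so the sort was not checked in the RNA.

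The epithelial identity of the line was present in both groups. The 9 markers of epithelial carcinoma, 8 of them measured, summed to 64.7 thinned UMIs per single-positive cell and 62.4 per double-positive cell. Any fibroblast marker was seen in 2.94% and 2.27% of these cells, any endothelial marker in 0.310% and 0.258%, any erythroid marker in 0.0775% and 0.155%, and any acinar marker in 2.63% and 2.42%. CD68, a lysosomal membrane protein that immune and other cells make, was the 1 immune marker measured, in 16.7% and 17.7% over all possible thinning draws. No second cell type was available as a measure of free RNA in the droplets.

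The libraries held 51637677 UMIs (single-positive), 62517276 (double-positive) and 65107147 (parental), with medians of 38137, 29963.5 and 23290 UMIs per cell. At the common depth the median cell held 2429, 2390 and 2379 genes, so the wider RNA content of single-positive cells at full depth (5924 against 5371 genes in double-positive cells) was nearly level after thinning. The single-positive library was uneven: 251 of its cells (19.4%, interval 17.3% to 21.7%) had under 15000 UMIs, against 142 (7.32%, 6.20% to 8.57%) in the double-positive and 390 (16.2%) in the parental library. These single-positive cells stood apart from the deeper ones in the same library. Their median mitochondrial share was 3.34% against 1.02%, they held 2687 against 2399 genes at the same depth, and their mean thinned count of MALAT1, a nuclear long noncoding RNA, was 40.5 against 14.2 UMIs. In all, 672 genes were found in at least 10 points more of the low-UMI than of the deeper single-positive cells, and 82 in fewer. The same count was 171 and 186 in double-positive and 30 and 16 in parental cells. Values are therefore given for all cells and, chosen after seeing the data, for the 1040 single-positive and 1798 double-positive cells with at least 15000 UMIs, called deeper cells from here on. Between libraries, 1 to 6 cell barcodes were shared in each pair.

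Over 6396 genes seen in at least 10% of either group's cells, the shares of most genes lay close together. The median difference was -0.624 percentage points, double-positive minus single-positive, and the median log2 ratio of the means was -0.04. The share was higher in double-positive cells for 38.6% of the genes and lower for 61.0%, which is the background for every count of list members given here. The share was at least 10 points higher in double-positive cells for 11 genes (0.172% of those measured) and at least 10 points lower for 21 (0.328%). By mean, 14 genes (0.219%) were at least 1.5-fold higher and 37 (0.578%) at least 1.5-fold lower, and 9 genes passed both thresholds, 2 of them higher. Among 1305 genes seen in at least 50% of the cells of both groups, the level within expressing cells was at least 1.3-fold higher for 4 (0.307%) and lower for 0 (0%). The intervals of the shares did not overlap for 189 genes (2.95%) in the higher and 523 (8.18%) in the lower direction.

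Which genes passed a threshold depended in part on the random draw. A second draw called 13 and 15 genes by share, 12 and 38 by mean and 3 and 0 by level in the higher and the lower direction, and shared 9 and 12, 7 and 17, and 3 and 0 of its calls with the first. The expected values over all possible draws of 6500 UMIs, computed exactly and chosen after seeing the data, gave 10 and 15 by share, 6 and 22 by mean and 3 and 1 by level, of which 9 and 14, 5 and 16, and 3 and 0 were calls of the first draw. The calls by mean were therefore less stable than those by share. Values averaged over all draws are given below for many, but not all, of the genes whose difference moved by over 1.5 times or whose call ended. Over all draws TPM2, HSPH1 and ISG20 fell short of 1.5-fold in mean, at log2 ratios of -0.56, -0.54 and 0.53. MT-ND3 fell short of 10 points in share, at 9.76. The share differences of ROCK1, MYL9 and LYNX1 were -0.567, -1.50 and -1.20 points over all draws.

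Most of the lean toward lower shares rested on the low-UMI cells. Among the deeper cells, with 6291 genes measured, 19 genes (0.302%) were at least 10 points higher in double-positive cells and 5 (0.0795%) at least 10 points lower. Averaged over all draws these were 14 and 5 genes, 13 and 3 of them the same. By mean, 30 genes (0.477%) were higher and 23 (0.366%) lower. The level was higher for 11 of 1302 genes (0.845%) and lower for 2 (0.154%), and share intervals lay apart for 220 (3.5%) and 290 (4.61%). Among these cells the median share difference was -0.154 points, and of the 6396 genes 45.8% had the higher and 53.7% the lower share in double-positive cells.

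**Figure D1:**
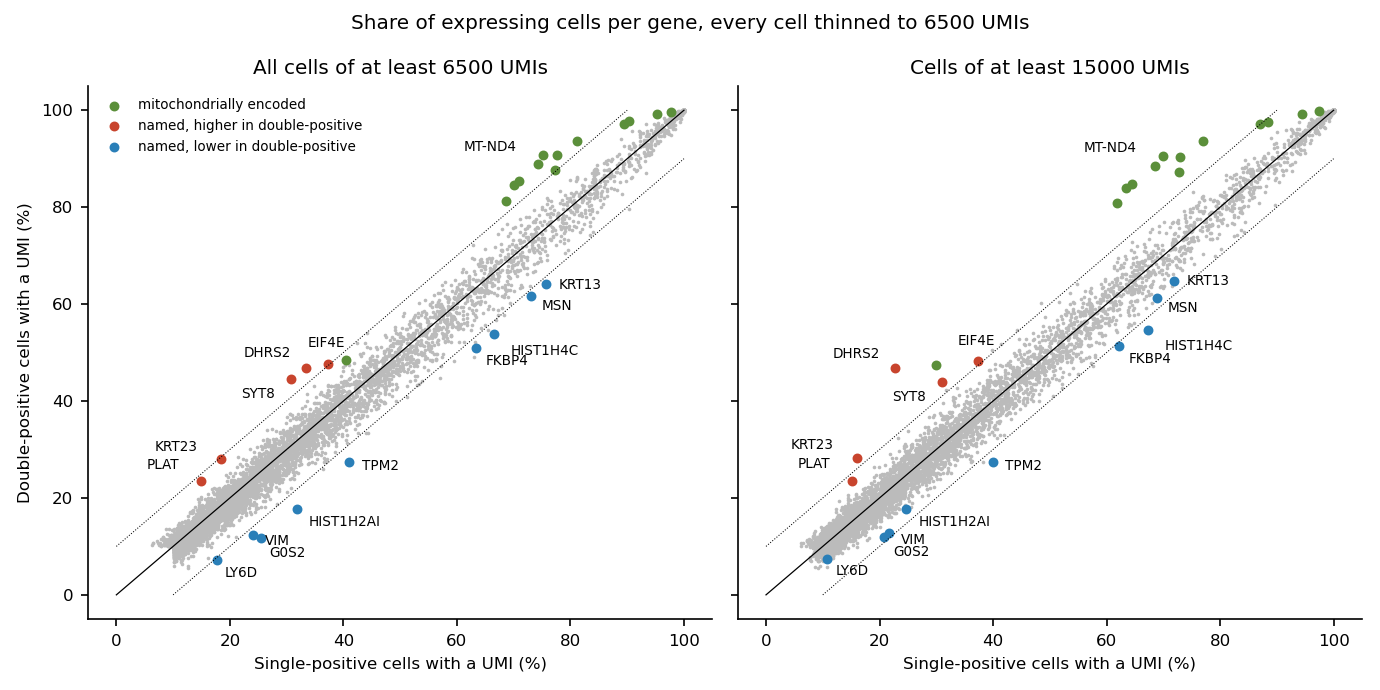
Percentage of double-positive cells (vertical axis) against percentage of single-positive cells (horizontal axis) with a UMI of each measured gene, for all cells (left) and for cells with at least 15000 UMIs (right). Dotted lines lie 10 points either side of equality. DHRS2 and SYT8 lie above the upper line in both panels with 8 mitochondrial genes on the left and 10 on the right, TPM2, FKBP4 and HIST1H4C below the lower line in both, and LY6D, VIM, MSN and KRT13 below it on the left only.

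Transcripts of the mitochondrial genome, which encodes 13 proteins of oxidative phosphorylation, gave the broadest difference. All 13 were found in more double-positive than single-positive cells, each with intervals that did not overlap, and 12 of the 13 had the higher mean. Their summed count was 148 thinned UMIs per double-positive cell, 108 per single-positive cell and 78.7 per parental cell. The median over the 13 genes was 12.6 points in share and 0.41 in log2 ratio of the mean, against -0.624 points and -0.04 over all genes. In the deeper cells the sums were 139 and 81.1 and the medians 17.4 points and 0.77.

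The genes differed in whether more cells or more molecules per cell carried the difference. MT-CO2, a subunit of cytochrome c oxidase, was found in nearly every cell, and its level was 53.6 UMIs in expressing double-positive cells, 35.8 in single-positive and 30.6 in parental cells. The median cell held 49.5 against 30 MT-CO2 molecules, so the gap was present in the middle of the distribution and not in its tail alone. MT-CO1, the catalytic subunit of the same complex, had levels of 34.8 and 27.2. MT-ND4, a subunit of complex I, differed in both: 90.8% of double-positive against 75.2% of single-positive and 70.6% of parental cells had a UMI, and the level was 4.63 against 4.11. For MT-ND5, another complex I subunit, the share was higher (85.4% against 71.0%) while the level was lower (4.43 against 4.83). MT-ND6, the 1 mitochondrial protein gene on the opposite strand, was found in 48.6% against 40.5% of cells with a level of 1.98 against 2.50, and its mean was nearly equal (log2 ratio -0.08). MT-ATP8 and MT-ATP6, and MT-ND4L and MT-ND4, are overlapping pairs on shared transcripts, and their counts are not independent.

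The inversions for MT-ND5 and MT-ND6 were not present in the deeper cells. There MT-ND5 was found in 84.8% against 64.5% of cells at levels of 4.11 and 3.16, and the log2 ratio of the MT-ND6 mean was 0.73. In full-depth UMIs the median mitochondrial share per cell was 2.08% in double-positive cells (quartiles 1.33% to 2.97%), 1.3% in single-positive cells (0.578% to 2.60%) and 0.947% in parental cells. A good part of the spread lay at the low end. Cells with under 0.5% mitochondrial UMIs made up 6.19% of the double-positive, 21.8% of the single-positive and 31.8% of the parental library. With those cells left out, the MT-CO2 level was still 56.4 against 43.0 and MT-ND4 was found in 94.1% against 89.0% of cells, and the difference of the median shares came to 0.442 in place of 0.778 points.

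Mitochondrial share also moved with the size of the cell's library. In cells of 6500 to 20000 UMIs, MT-ND4 was found in 95.7% of double-positive and 96.0% of single-positive cells, and in cells of at least 50000 UMIs in 76.5% and 56.1%. The difference in MT-ND4 was thus seen in the 3 upper ranges of UMIs and not in the lowest. The 10000 highest-ranked barcodes under 1000 UMIs held a mean of 24.7 UMIs in the double-positive and 23.7 in the single-positive library. These barcodes were rich in MT-CO2. Per 1000000 UMIs, it made up 53928 in the double-positive and 45955 in the single-positive set, against 7536 and 4213 in cells at full depth. Damaged cells and free RNA were not told apart in these sets. The part of free RNA in the mitochondrial difference was not tested. Subunits encoded in the nucleus showed no such lean. Of the 50 measured, 23 were found in more and 27 in fewer double-positive cells. The 51 listed genes with a feature summed to 136 thinned UMIs per cell in both groups. Among them SDHA, the catalytic subunit of complex II, was found in 49.6% against 57.5% and UQCRB, a subunit of complex III, in 74.8% against 81.7% of cells (-4.36 points over all draws).

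**Figure D2:**
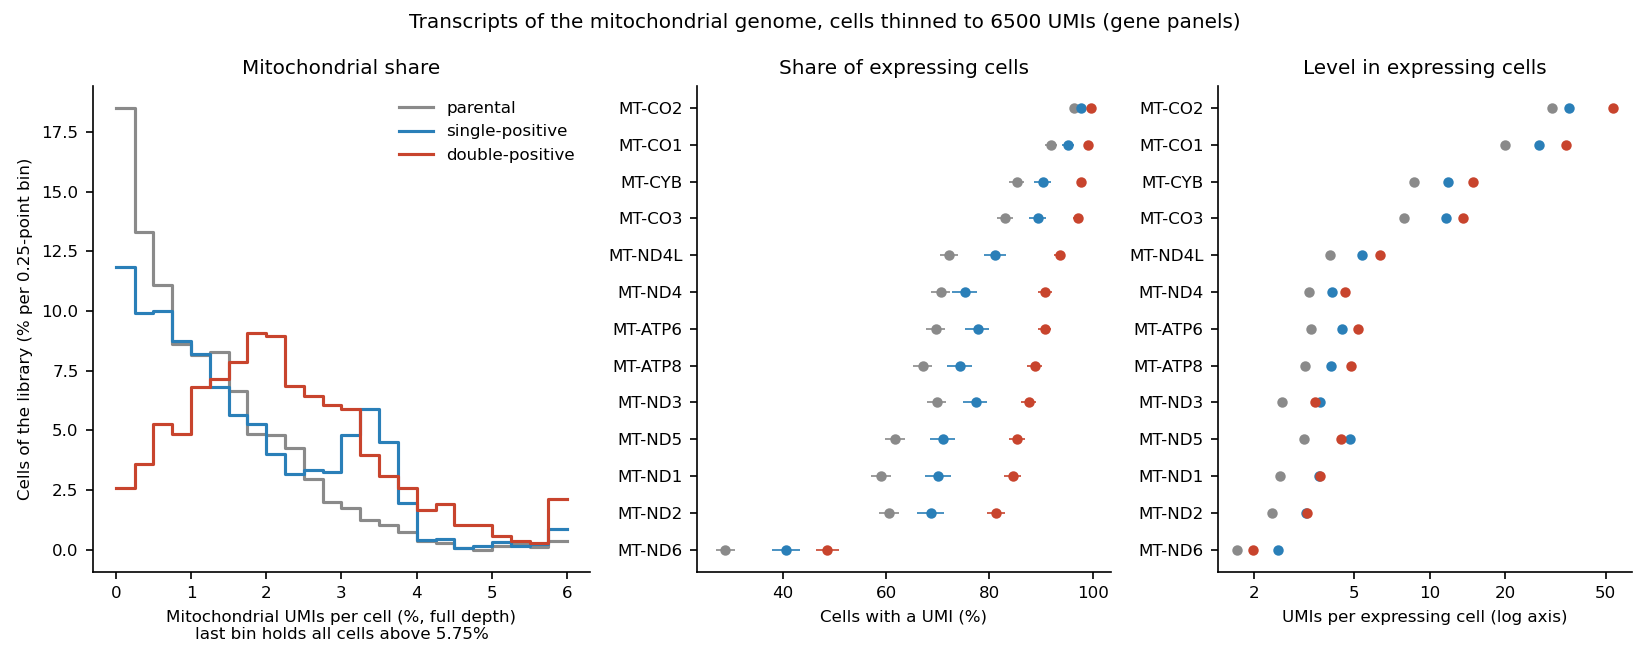
Left, distribution of the percentage of mitochondrial UMIs per cell (horizontal axis) as the percentage of each library's cells per bin (vertical axis). Middle and right, share of expressing cells (%, with 95% counting intervals) and thinned UMIs per expressing cell (log axis) for the 13 genes; the double-positive points lie to the right of the others in the middle panel for every gene, while MT-ND3, MT-ND5 and MT-ND6 have the higher level in single-positive cells.

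Among nuclear genes, DHRS2 and SYT8 were the 2 that passed both the share and the mean threshold in the higher direction. DHRS2 (ENSG00000100867, chr14:23630115-23645639 on GRCh38, plus strand) encodes a short-chain dehydrogenase/reductase. It was found in 46.9% of double-positive cells (44.6% to 49.1%), 33.4% of single-positive cells (30.8% to 36.0%) and 29.6% of parental cells, and the level was 6.38 against 4.18. Both the number of expressing cells and the amount in each were therefore higher, and the log2 ratio of the means was 1.10. In G1 cells the DHRS2 share was 43.4% against 28.8% at levels of 3.83 and 3.47, whereas in G2/M cells it was 53.9% against 44.9% at levels of 9.48 and 4.58, so the higher level lay mostly in cells scored G2/M. In S-phase cells the shares were 38.9% and 11.2%. Values by phase, here and below, took in the low-UMI cells and were not computed without them. The low-UMI single-positive cells went the other way for DHRS2: 77.7% of them had a UMI. Without them the single-positive share was 22.7% and the double-positive share 46.7%.

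SYT8 (ENSG00000149043, chr11:1828307-1837521, plus strand) encodes a member of the synaptotagmin family of membrane proteins. Its share was 44.6% in double-positive, 30.8% in single-positive and 31.9% in parental cells, and its level was 1.63 against 1.41. The SYT8 difference held in each range of UMIs: 48.8% against 30.6%, 43.5% against 32.7%, 44.5% against 27.9% and 42.9% against 33.1%, from the lowest range to the highest. KRT23, a type I keratin, was found in 28.0% against 18.5% (parental 19.0%) at levels of 2.26 and 1.78, and the deeper cells gave 28.3% against 16.1%. PLAT, the tissue-type plasminogen activator, was found in 23.5% against 14.9% (parental 15.8%). For these 3 genes the single-positive and parental shares lay close together and the double-positive share stood above both.

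A further set had low single-positive values beside parental values near the double-positive ones. EIF4E, the cap-binding translation factor, was found in 47.7% of double-positive, 37.3% of single-positive and 45.4% of parental cells. Its call did not hold over all draws, where the shares were 45.3% and 40.4%. HMGN3, a nucleosome-binding protein, had 54.0%, 44.2% and 52.2%, and PPIC, a peptidyl-prolyl isomerase of the cyclophilin family, had 72.2%, 62.8% and 71.3%. Over all draws the HMGN3 difference was 6.53 points and the PPIC difference 11.4 points, so of these 3 genes PPIC alone passed 10 points. ZNF655, a zinc finger protein, went with the first pattern at 52.1%, 42.4% and 44.6% (7.34 points over all draws). BIK, a pro-apoptotic BH3-only protein, was found in 51.9% against 43.8% and DAAM1, a formin that assembles actin filaments, in 43.1% against 34.8% of double-positive and single-positive cells, with differences of 8.32 and 6.35 points over all draws.

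Of the genes found in at least 10 points fewer double-positive cells, 3 remained past that threshold in the deeper cells. TPM2 (ENSG00000198467, chr9:35681992-35690121, minus strand), an actin-binding tropomyosin, was found in 27.4% of double-positive, 41.1% of single-positive and 35.8% of parental cells at nearly equal levels (1.55 and 1.57). The TPM2 shares were 27.1% against 45.8%, 28.3% against 37.6%, 24.9% against 40.0% and 30.0% against 40.7% over the 4 ranges of UMIs, lower in double-positive cells throughout. FKBP4, a co-chaperone of HSP90, was found in 50.9% against 63.3% (parental 56.5%), and in 51.3% against 62.1% of the deeper cells. HIST1H4C, a histone H4 gene used in DNA replication, was found in 53.8% against 66.5% (parental 49.8%) at levels of 2.26 and 2.74. PRKDC, the catalytic subunit of DNA-dependent protein kinase, and SLC25A1, the mitochondrial citrate carrier, were named after their values were seen: they completed the 5 lower genes among the deeper cells, at 47.3% against 57.6% and 27.4% against 38.3%. Neither passed over all draws (-6.99 and -6.35 points), where VIM and ARHGDIB took their place at -10.3 and -10.1 points.

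Most of the other lower shares described here were wider with the low-UMI cells than without them. VIM, the mesenchymal intermediate filament vimentin, was found in 12.4% of double-positive, 24.0% of single-positive and 14.8% of parental cells, and in 12.7% against 21.6% of the deeper cells. ARHGDIB, a dissociation inhibitor of small GTPases, was found in 55.7% against 64.9%, and in 56.0% against 64.9% of the deeper cells, so it did not depend on the low-UMI cells. MSN, the membrane-to-actin linker moesin, was found in 61.8% against 73.0% (deeper cells 61.3% against 68.9%). EGR1, an immediate early transcription factor, had 44.7% against 57.1% (deeper cells 44.4% against 51.5%). TGM2, a transglutaminase that crosslinks proteins, had 56.8% against 66.9% (deeper cells 56.7% against 61.7%). For VIM, MSN, EGR1 and TGM2 the double-positive shares barely moved when low-UMI cells were removed, and the single-positive shares came down. TGM2 was unstable: its difference averaged over all draws was -7.84 points and -2.39 among deeper cells, and it turned to 0.470 points higher in double-positive cells at 13000 UMIs and 0.439 points higher in cells of 22974 to 38512 UMIs, the quartile range that the groups share.

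LY6D, KRT4, HIST1H2AI and TFF1 depended on the low-UMI cells as well. LY6D, a surface protein of stratified epithelia, was found in 7.22% of double-positive, 17.7% of single-positive and 13.4% of parental cells. In the low-UMI single-positive cells its share was 46.2%, and among deeper cells the shares were 7.45% and 10.8%. KRT4, a keratin of non-cornifying stratified epithelium, had 5.62%, 12.5% and 10.2% in the same order, and 5.78% against 8.65% among deeper cells. HIST1H2AI, a histone H2A gene with near-identical copies whose counts are uncertain, had 17.7% against 31.8%, and 17.6% against 24.7% among deeper cells, with 61.0% in the low-UMI single-positive cells. In the shared quartile range of UMIs HIST1H2AI was 2.04 points higher in double-positive cells. TFF1, a secreted trefoil peptide of mucous epithelia, had 6.60% against 9.6%, and 6.62% against 7.02% among deeper cells. For LY6D in cells of 20000 to 35000, 35000 to 50000 and at least 50000 UMIs, the shares were 6.20% against 8.16%, 9.28% against 9.63% and 11.8% against 13.7%, so above 20000 UMIs the groups lay within about 2 points. Among all deeper cells both share and level were lower for these genes: expressing cells held 2.39 LY6D molecules in the double-positive and 3.46 in the single-positive library, and 2.27 against 3.46 KRT4 molecules. The log2 ratios of the mean over those cells were -1.06 for LY6D and -1.19 for KRT4.

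**Figure D3:**
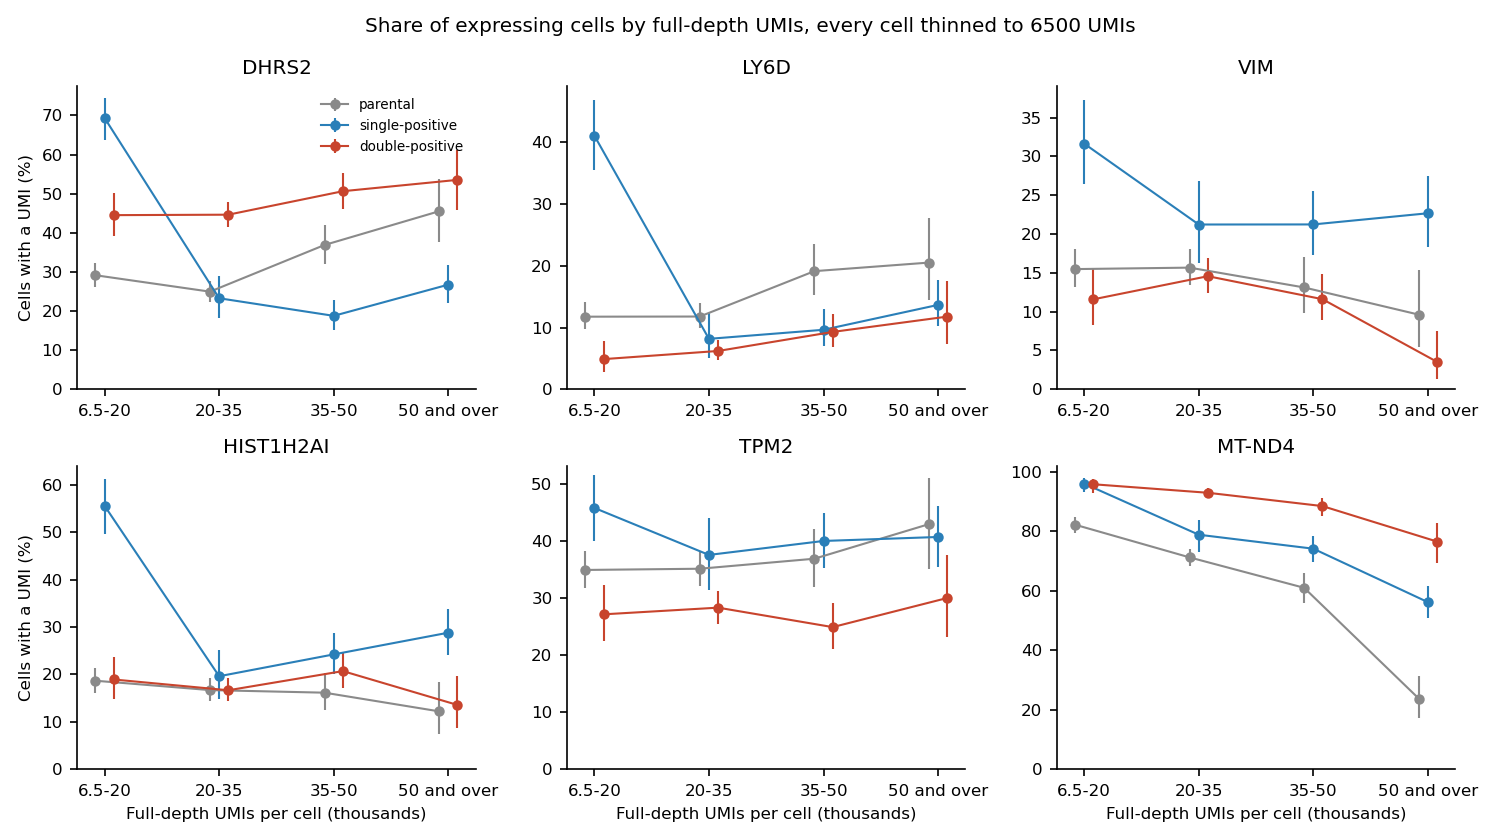
Percentage of thinned cells with a UMI (vertical axes, with 95% counting intervals) for 6 genes in 4 ranges of full-depth UMIs per cell (horizontal axes, in units of 1000). For DHRS2, LY6D and HIST1H2AI the single-positive share is highest in the lowest range, while TPM2 is lower in double-positive cells in all 4 ranges.

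Promoters are shown for ISG15 and IFI6, the interferon-stimulated genes that led the level differences, and for MT2A and MT1X, metallothioneins that did not move alike. Interferon-stimulated genes are transcribed when a STAT and IRF9 complex binds the interferon-stimulated response element, and metallothioneins when MTF1 binds metal response elements. The sequences are the 250 bases before the annotated start from RefSeq (GRCh38.p14), written 5′ to 3′ on the gene's strand. Capitals mark GAAANNGAAA, the core of the interferon element, in ISG15 and IFI6, and TGCACNC or TGCGCNC, the core of the metal element, in MT2A and MT1X, on either strand and with overlapping matches merged.
ISG15, chr1:1013247-1013496, plus strand: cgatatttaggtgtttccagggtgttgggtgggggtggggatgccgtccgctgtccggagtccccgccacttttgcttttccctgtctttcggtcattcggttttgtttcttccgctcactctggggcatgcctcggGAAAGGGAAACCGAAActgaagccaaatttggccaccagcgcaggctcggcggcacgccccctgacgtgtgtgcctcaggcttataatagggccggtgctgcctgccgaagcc
IFI6, chr1:27672193-27672442, minus strand: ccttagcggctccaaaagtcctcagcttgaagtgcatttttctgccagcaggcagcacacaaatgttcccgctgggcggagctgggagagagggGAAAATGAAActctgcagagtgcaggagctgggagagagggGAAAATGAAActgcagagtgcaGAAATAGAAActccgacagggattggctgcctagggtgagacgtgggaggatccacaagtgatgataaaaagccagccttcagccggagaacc
MT2A, chr16:56608334-56608583, plus strand: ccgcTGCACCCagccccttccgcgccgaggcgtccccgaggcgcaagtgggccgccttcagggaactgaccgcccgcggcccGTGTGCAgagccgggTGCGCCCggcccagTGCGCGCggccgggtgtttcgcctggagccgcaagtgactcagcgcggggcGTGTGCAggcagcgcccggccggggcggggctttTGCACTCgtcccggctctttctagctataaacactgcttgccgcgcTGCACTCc
MT1X, chr16:56682220-56682469, plus strand: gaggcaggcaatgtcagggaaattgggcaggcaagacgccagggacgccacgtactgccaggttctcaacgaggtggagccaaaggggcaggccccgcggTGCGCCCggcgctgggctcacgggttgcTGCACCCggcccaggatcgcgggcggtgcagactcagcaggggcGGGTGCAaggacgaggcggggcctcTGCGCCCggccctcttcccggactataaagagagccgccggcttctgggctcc
ISG15 held 2 matches and IFI6 held 3, while MT2A held 7 and MT1X held 4. Of 35116 windows of the same length, 3.02% held GAAANNGAAA and 24.8% held either form of the metal element. Of the 34 interferon genes measured, 27 had a window in the table and 20 of these held a match. A match describes these letters and is not a measured binding site.

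Interferon genes found in nearly every cell differed by level, and their shares had little room to differ. ISG15, a ubiquitin-like protein, was found in nearly every cell, with levels of 9.57 UMIs in double-positive, 7.35 in single-positive and 10.2 in parental cells. Its level was 10.8 against 8.35 in G1, 7.80 against 5.84 in S and 8.90 against 7.02 in G2/M, higher in each phase. The log2 ratio of its level was 0.36 over all draws, just under the 1.3-fold threshold. IFI6, a mitochondrial membrane protein induced by interferon, had levels of 19.3, 15 and 17.6, and the median cell held 18, 14 and 16 molecules. B2M, the light chain of MHC class I, had levels of 44.7, 35.6 and 42.3, and IFITM1, a membrane protein that restricts viruses, had 8.68, 6.93 and 9.26. In all 4 the single-positive level was the lowest of the 3 libraries.

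The whole list of interferon genes leaned the same way. Of 34 measured, 23 were found in more and 11 in fewer double-positive cells (median 1.10 points), 25 had the higher mean, and intervals of the share lay apart for 5, all higher: IFI6, IFITM2, ISG15, ISG20 and SAMD9. The summed count was 114 thinned UMIs per double-positive cell, 94.7 per single-positive cell and 115 per parental cell, so double-positive and parental cells were nearly level. All 8 members seen in at least 50% of both groups had the higher level in double-positive cells, and their median log2 ratio was 0.24. Among deeper cells 31 of the 34 had the higher share, and intervals lay apart for 10. ISG20, an exonuclease for single-stranded RNA, differed in both respects (33.9% against 26.6% of cells, levels 2.32 and 1.89). STAT2, a subunit of the interferon transcription factor, was found in 11.1% against 14.3% of cells, and in 11.2% against 11.3% of deeper cells, with 26.7% in the low-UMI single-positive cells.

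Beyond the interferon and mitochondrial genes, AQP3 passed the level threshold. AQP3, a channel for water and glycerol, had levels of 15.4 UMIs in double-positive, 11.1 in single-positive and 13.0 in parental cells, and 15.5 against 11.9 in the deeper cells. ALDH3A1, an aldehyde dehydrogenase, had 4.55 against 3.64 with a parental level of 3.30, and PLAUR, the receptor of urokinase, had 3.56 against 2.85. For AQP3 the parental level lay between the other 2 libraries, and for ALDH3A1 the double-positive level stood above both.

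In the lower direction no gene passed the level threshold in all cells of this draw, and RPL37A and MT1E lay nearest to it. RPL37A, a protein of the large ribosomal subunit, had levels of 7.05 in double-positive, 9.15 in single-positive and 6.45 in parental cells, and passed over all draws at 7.0 against 9.17. MT1E, a metallothionein that binds zinc and copper, had 7.65, 9.89 and 7.83, and passed among the deeper cells at 7.49 against 10.1. MT2A had 49.8, 59.8 and 53.1, with cell medians of 42 and 51 molecules in double-positive and single-positive cells, while MT1X was nearly equal at 8.11 and 8.0. All 8 listed metallothioneins, 3 of them measured, summed to 64.9 UMIs per double-positive cell, 77.0 per single-positive cell and 68.1 per parental cell. KRT7, a simple epithelial keratin, had 15.1, 18.1 and 17.6. FLNA and AHNAK, large proteins of the cell cortex, had 3.5 against 4.35 and 3.18 against 4.0, and the log2 ratios of their levels were nearer to 0 in the deeper cells, at -0.25 and -0.14.

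**Figure D4:**
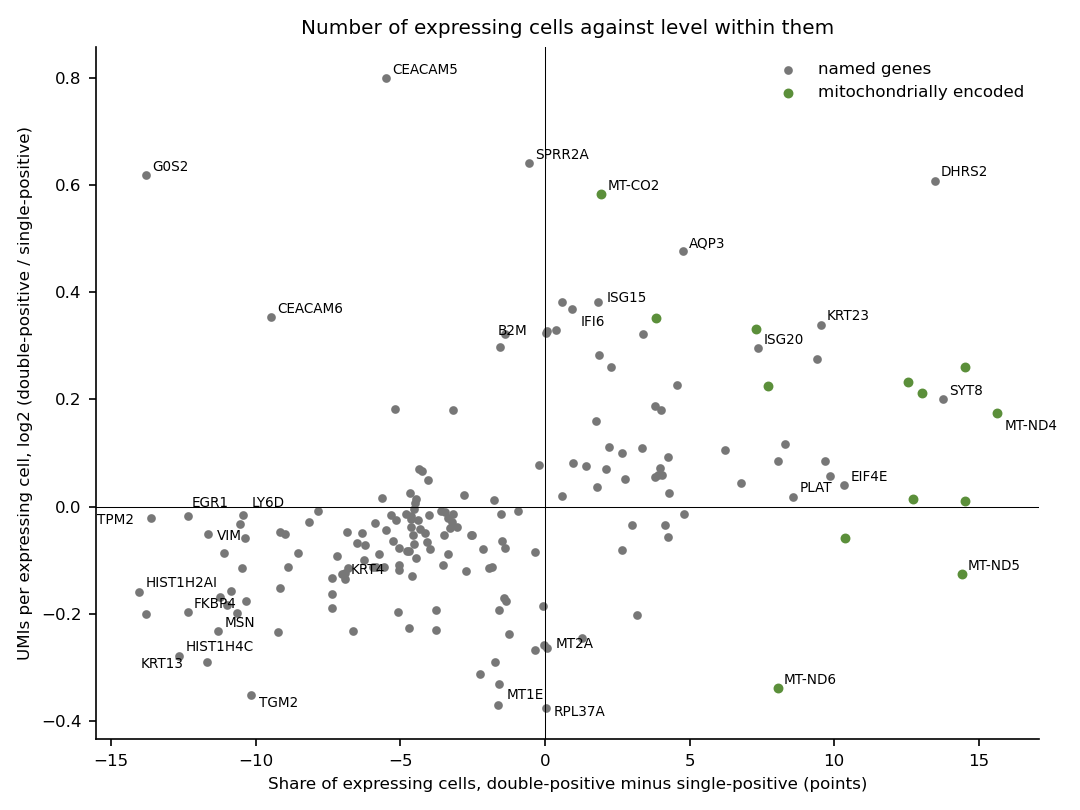
Difference in the share of expressing cells (horizontal axis, percentage points, double-positive minus single-positive) against the log2 ratio of the level in expressing cells (vertical axis) for the named and the mitochondrial genes. AQP3, ISG15 and B2M differ in level with shares within 5 points, TPM2 differs in share at almost the same level, and G0S2, CEACAM5 and CEACAM6 lie at the upper left, with fewer expressing cells and more molecules in each.

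In 12 genes the share and the level pointed in opposite directions by over 2 points and over 0.2 in log2, a pattern that a summed value does not show. CEACAM5, a carcinoembryonic antigen, was found in 7.99% of double-positive against 13.5% of single-positive cells, and expressing cells held 3.11 against 1.79 molecules. Its relative CEACAM6 had 18.8% against 28.3% at levels of 2.98 and 2.33. PI3, the elastase inhibitor elafin, had 12.1% against 19.6% at levels of 4.52 and 2.49. G0S2, an inhibitor of the lipase ATGL, had 11.7% against 25.5% at levels of 3.61 and 2.35. The chemokines CXCL1 (16.5% against 22.8%), CXCL2 (27.3% against 35%) and CXCL8 (11.9% against 15.6%, levels 2.68 and 1.87) followed the form of G0S2. Over all cells, double-positive cells with CEACAM5, CEACAM6, PI3, G0S2 or these chemokines were thus fewer and held more of the transcript. Among deeper cells the shares lay closer, at 16.7% against 20.6% for CXCL1, 27.4% against 28.9% for CXCL2, 12.1% in both groups for CXCL8 and 12.2% against 14.7% for PI3, while the low-UMI single-positive cells had 31.9%, 60.2%, 29.9% and 39.8%. Of the 17 measured chemokine and NF-kB genes, 14 had the lower share in double-positive cells (median -3.45 points), and 8 of 16 among deeper cells (median 0.0773 points). For CEACAM5 the shares of the deeper cells were 7.79% and 7.69%, with 37.5% in the low-UMI single-positive cells, so at higher depth the difference lay in the level alone. For CEACAM6 the level difference narrowed there to 2.90 against 2.77, while for G0S2 both remained, at 12.0% against 20.9% and levels of 3.60 and 2.71.

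Some differences came from few cells. SPRR2A, a small proline-rich protein of the cornified envelope, had shares of 17.1% and 17.7% at levels of 4.75 and 3.05, and 17.2% against 12.3% among deeper cells. S100A8, a calcium-binding protein of inflamed epithelium, was found in 1.80% of double-positive and 1.16% of single-positive cells at levels of 3.94 and 1.13, and a single double-positive cell held 38 of the library's 138 molecules. Its log2 ratio of the mean was 2.43 in this draw and 1.58 over all draws. GAL, the neuropeptide galanin, was found in 2.73% of double-positive, 6.97% of single-positive and 7.47% of parental cells. DEFB1, an antimicrobial defensin, had 4.38%, 9.30% and 7.85% (4.78% against 7.87% in double-positive and single-positive cells over all draws), which like GAL placed the double-positive library lowest. CALB1, a calcium buffer, had 3.09%, 9.91% and 3.57%, and here the single-positive library stood above the other 2. LYNX1, a modulator of nicotinic receptors, had 1.75% against 3.64%.

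The entosis machinery, from adhesion to contraction, held no gene past the mean or share threshold other than MSN, whose difference was under 10 points in the second draw and -11.0 over all draws. Of 30 measured members, 11 were found in more and 19 in fewer double-positive cells, with a median of -0.322 points. Among deeper cells the counts were 17 and 13. The 36 listed genes with a feature summed to 61.7 against 60.9 thinned UMIs per cell. CDH1, E-cadherin, was found in 41.3% against 37.3% of all cells and 40.3% against 33.0% of deeper cells, which over all draws became differences of 1.64 and 4.49 points. CTNNA1, the catenin that ties it to actin, had 63.9% against 68.4%, and 63.7% against 64.4% among deeper cells. RHOA was found in 92.6% against 92.8% of cells at levels of 3.10 and 2.93. NET1, an exchange factor that activates RhoA, had 61.6%, 57.9% and 51.9% in double-positive, single-positive and parental cells. ROCK1, the kinase downstream of RhoA, had 24.3% against 25.8%, MYL9, a myosin light chain, 5.41% against 6.04%, and EZR, the membrane linker ezrin, 95.7% against 96.0%. MYH9, the heavy chain of nonmuscle myosin, had 75.3% against 80.3%, and 75% against 76.8% among deeper cells.

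Among other cytoskeleton lists, the tubulins had the lower sum in double-positive cells, while the actin, myosin and tropomyosin genes had nearly equal sums. Of 29 actin, myosin and tropomyosin genes, 8 were found in more and 21 in fewer double-positive cells, where 61.0% of all genes had the lower share. Intervals lay apart for 8, all lower, and for 5, all lower, among deeper cells. Over all genes 8.18% and 4.61% had intervals apart in that direction. TPM1 followed its paralog TPM2 at 54.7% against 65.5%, and 55.8% against 64.3% among deeper cells (-8.57 and -7.16 points over all draws). The median over the list was -0.720 points, near the -0.624 of all genes, and the summed count was nearly equal (192 and 195 thinned UMIs per cell). Of 9 tubulins measured, 8 had the lower mean. All 11 listed tubulins summed to 30.8 against 35 UMIs (parental 30.6). The levels of TUBA1B and TUBB, the main alpha and beta chains, were 11.9 against 13.4 and 3.59 against 4.2. The tubulin sum kept that gap among deeper cells, with a log2 ratio of -0.21 against -0.18 in all cells.

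Replication-dependent histones and heat shock genes were lower by count of members. Of 17 histone genes measured, 15 were found in fewer double-positive cells (median -4.34 points), and intervals lay apart for 10. All 29 listed histone genes summed to 7.16 against 9.44 UMIs per cell (parental 6.57). Among deeper cells 6 of 13 had the higher and 7 the lower share. HIST1H1E, a linker histone, had 49.2% against 63.0%, and 49.1% against 56.8% among deeper cells (-11.3 and -4.61 points over all draws). Of 25 immediate early and heat shock genes, 24 were found in fewer double-positive cells (median -1.97 points), and 17 of 25 among deeper cells (median -0.757 points). HSPH1, a chaperone of the HSP110 family, was found in 33.3% against 44.3%. The cell cycle moved beside these lists over all cells. G2/M was scored in 39.6% of double-positive, 46.1% of single-positive and 40.3% of parental cells, and S in 15.6%, 16.0% and 13.6%. Phases were not counted without the low-UMI cells. The part of the cell cycle in the histone and tubulin values was not tested.

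Sterol and lipid genes were lower in most members. Of 23 genes of cholesterol synthesis, 19 were found in fewer double-positive cells (median -2.52 points) and 17 among deeper cells (median -2.61 points), and the sum was 14.1 against 15.6 UMIs per cell. FDFT1, squalene synthase, was found in 79.6% against 90.2% of cells and 80.4% against 89.7% of deeper cells, but over all draws the differences were -6.49 and -5.03 points. Of 14 genes of fatty acid metabolism, 11 had the lower share, and 11 of 13 among deeper cells, where 61.0% and 53.7% of all genes did. Of 27 lysosomal genes, which digest engulfed cargo, 15 had the higher and 12 the lower share, where 38.6% of all genes had the higher share. Among deeper cells 18 were higher and 9 lower, where 45.8% of all genes were higher. The lysosomal sum was 32.2 against 30.5. NPC2, a lysosomal carrier of cholesterol, had levels of 4.76 and 3.92. Of 17 autophagy genes, 8 had the higher share, among them GABARAPL2, an ATG8-family protein, at 67.3% against 61.0%. Among deeper cells 11 autophagy genes were higher and 6 lower. Of 19 p53 targets, 10 had the higher and 9 the lower share, and among deeper cells 14 of 18 were higher and 4 lower. TIGAR, a p53 target and regulator of glycolysis, was found in 34.3% against 27.5%.

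Squamous differentiation genes did not move as a block. Of 20 measured, 5 had the higher and 15 the lower share in double-positive cells, but among deeper cells 12 of 18 had the higher share. By mean, KRT15, KRT23 and SPRR2A were at least 1.5-fold higher and 3 members at least 1.5-fold lower, and over all draws KRT23 alone stayed at least 1.5-fold higher. KRT13, the partner keratin of KRT4, had 64.1% against 75.8% at levels of 6.88 and 8.41, and 64.8% against 71.9% among deeper cells. KRT15, a basal keratin, had 10.8% against 6.51%, and 9.38% against 7.30% over all draws (log2 ratio of the mean 0.41). Of 14 genes of epithelial-mesenchymal transition, 12 had the lower share in double-positive cells (median -3.75 points), and 10 of 13 among deeper cells (median -1.48 points). Of 16 YAP/TEAD targets, 13 had the lower share, and 11 of 16 among deeper cells. Of 23 NRF2 targets, 16 had the lower share, and 17 of 23 among deeper cells, at nearly equal sums over all cells (168 and 169 UMIs, parental 200). Over all genes 61.0% had the lower share, and 53.7% among deeper cells.

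VIM was rarely found in the same cells as LY6D or KRT4. Among double-positive cells with VIM, 0.833% also had LY6D, against 8.12% of cells without VIM, and 0.417% against 6.35% had KRT4. Single-positive cells showed that separation only at higher depth: LY6D was found in 15.2% of cells with VIM and 18.5% without, but among deeper cells in 2.67% (0.985% to 5.71%) and 13.0% (10.8% to 15.5%). In the low-UMI single-positive cells, 48.2% of cells with VIM had LY6D. The deeper parental cells gave 3.39% and 15.6%. KRT13 was less separate: it was found in 35% of double-positive cells with VIM and 68.2% without, in 67.1% and 78.5% of single-positive cells (57.3% and 76.0% among deeper ones), and in 49.3% and 77.3% of parental cells. LY6D and KRT4, in contrast, shared cells. Among deeper single-positive cells KRT4 was found in 42.9% of cells with LY6D and 4.53% without, and among all double-positive cells in 26.4% and 4.0%.

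**Figure D5:**
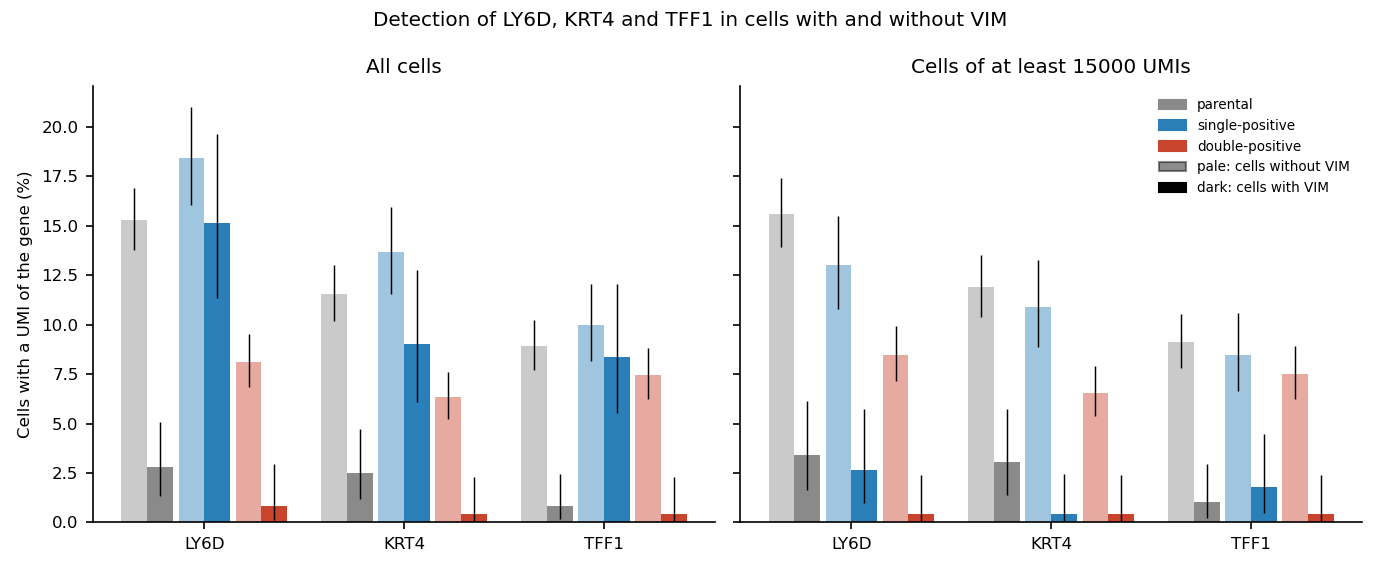
Percentage of cells with a UMI of LY6D, KRT4 or TFF1 (vertical axis) among cells without VIM (pale bars) and with VIM (dark bars) in each library, for all cells (left) and for cells with at least 15000 UMIs (right), with 95% counting intervals. The dark bars are low in every library on the right, and on the left the single-positive dark bars stand near the pale ones.

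The genes higher in double-positive cells were found together to differing degrees. SYT8 was found in 45.8% of double-positive cells with AQP3 and 17.6% without it, and in 32.0% and 19.5% of single-positive cells. Among cells with KRT23 it was found in 50.6% of double-positive cells, against 42.3% of those without, and in 30.1% and 31.0% of single-positive cells. The share of SYT8 thus went up with KRT23 in double-positive and not in single-positive cells, and a test of that difference was not possible. DHRS2 was found in 42.1% of double-positive cells with LY6D and 47.2% without, while in single-positive cells the order was the other way at 59.6% and 27.8%, and 27.7% and 22.1% among deeper cells.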

How the data were processed

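The deposited files hold, per the file headers and values, UMI counts per gene and barcode for 1 library each of parental, single-positive and double-positive BxPC-3 cells, with 737280 barcodes and 33694 features. The 10x Chromium 5' kit V2 was used, per the labels' protocols. GRCh38, Seurat 4.0.6 and Cell Ranger 4.0.0 are named in the submitters' processing notes, and the annotation release was not given in the sources used here. Positions were taken from GENCODE 29 by gene identifier (33132 features matched, 562 did not).

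Barcodes with at least 6500 UMIs, 500 genes and at most 20% mitochondrial UMIs were kept, which left out 160 parental, 106 single-positive and 152 double-positive barcodes of 1000 to 6500 UMIs. No doublets were removed, since the sort selects events with both signals. Cells were thinned without replacement to 6500 UMIs. Values over all draws are hypergeometric expectations for the same cells and depth. Thinning evens the depth per cell; it does not even RNA quality or free RNA. Cells of a library are not replicates, so sizes, counts and counting intervals are given without p-values. The members, lists, thresholds and named genes were chosen with earlier results of these data known. Named genes (mitochondrial, ribosomal, antisense, clone-named and sex-linked ones left out of the ranks) were the 10 widest share differences and the 8 largest mean and level ratios in each direction, up to 4 of each list, and 19 genes named in earlier results. Other genes that passed a share threshold were named after their values were seen, as were IFITM2, SAMD9, PI3 and the chemokines. Phases were scored on thinned cells. Sums over a gene list take in every member with a feature, also those seen in under 10% of cells. Alternatives changed depth, cell selection, scaling, phase weighting and expression floor. A few genes are not reported here. The computation was tested on simulated data. Versions were scanpy 1.11.5, pandas 2.3.3, matplotlib 3.10.9, scipy 1.17.1 and numpy 2.4.6 under Python 3.11.15.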

Additional observations from a re-analysis of the deposited data

How the results depend on the processing

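No paired analysis was possible because every label gives replicate 1 and each group has 1 library. The values compared are, in order, genes at least 10 points higher and lower in share in double-positive cells (11 and 21), at least 1.5-fold higher and lower in mean (14 and 37), at least 1.3-fold higher and lower in level (4 and 0), the difference in median mitochondrial share (0.778 points) and in median genes per thinned cell (-39). Those that moved are given here. Thinning to 3000 UMIs gave 7 lower shares, 9 higher and 21 lower means and -23 genes. Thinning to 13000 UMIs gave 17 higher shares, 24 higher means, 13 higher and 6 lower levels and 0.975 points. Without thinning there were 6 higher and 288 lower shares, 29 higher and 100 lower means, 15 higher and 12 lower levels and -553 genes. UMIs per cell were not matched in that setting, which gave the most lower shares of all settings. Counting a cell as expressing only from 2 UMIs gave 5 higher and 6 lower means and 2 higher levels. Without cells under 0.5% mitochondrial UMIs there were 5 higher and 36 lower shares, 69 lower means, 2 lower levels, 0.442 points and -53 genes. Without cells of at least 50000 UMIs there were 7 higher and 34 lower shares, 67 lower means, 2 lower levels and 0.468 points. G1 cells alone gave 20 higher shares, 36 higher and 101 lower means, 2 lower levels and -21 genes. Weighting the phases equally gave 1 lower level, and weighting 4 UMI ranges equally gave 2. The shared quartile range of 22974 to 38512 UMIs (327 single-positive and 970 double-positive cells) gave 44 higher shares, 129 higher and 96 lower means, 9 higher and 4 lower levels, and turned the difference in genes to 19. With mitochondrial genes removed and 6000 UMIs per cell there were 4 higher shares, 8 higher means, 1 lower level and -24 genes. Only genes in at least 20% of cells gave 6 higher and 10 lower means, and median-ratio scaling gave 24 lower means. Leaving out cells under 15000 UMIs, chosen after seeing the data, gave 19 and 5 shares, 30 and 23 means, 11 and 2 levels, 1.00 points and -10 genes. Expected values over all draws, chosen likewise, gave 6 higher and 22 lower means and 1 lower level.

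A few single values turned. The log2 mean of ELK4 was 0.011 in a second random draw. In the shared quartile range HIST1H2AI was 2.04 points higher in share and 0.12 in log2 mean, NFATC3 had a log2 mean of 0.19, PLAT of -0.025, and TGM2 was 0.439 points higher; at 13000 UMIs TGM2 was 0.470 points higher. The cause was not tested for any of these. Of 518 other values, 475 stayed within their allowed range in the second draw and 499 in the mean over all draws. The same held for 516 with a mitochondrial limit of 10%, 409 without cells under 15000 UMIs and 290 in the shared quartile range. For a gene the range came from counting intervals, with the width for a level taken from its mean. For a list it was 1 standard deviation of the member values either side. Genes near 10% of cells, at about 1 UMI per expressing cell, are the least certain in level.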

Other observations

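Genes named after their values were seen widened the higher side among the cells with at least 15000 UMIs. C15orf48, a small mitochondrial protein induced in inflammation, was found in 42.3% of double-positive and 31.6% of single-positive cells. LCN2, the siderophore-binding lipocalin, had 60.1% and 48.5%, and SAMD9, an interferon-inducible antiviral protein, had 50.6% and 39.8%. These 3 genes were among the 9 nuclear genes that passed 10 points at that depth and not among the 3 that did so over all cells. Averaged over all draws, C15orf48 differed by 10.01 points, LCN2 by just under 10 and SAMD9 by 6.66.

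Other lower shares over all cells belonged to genes of differing roles. MMP1, an interstitial collagenase, was found in 33.5% of double-positive and 44.0% of single-positive cells, and S100P, a calcium-binding protein of pancreatic carcinoma, in 57.8% and 68.3%. PODXL, a sialomucin of the apical membrane, had 26.0% and 36.3%, MAP2K2, a kinase of the ERK pathway, 40.8% and 51.2%, and PTRF, the caveolar coat protein cavin, 48.2% and 59.5%. Averaged over all draws, MMP1 and PODXL stayed past 10 points (-11.0 and -11.3), while S100P, PTRF and MAP2K2 did not (-9.0, -9.69 and -6.35). None of these 5 genes passed the same threshold among the cells with at least 15000 UMIs.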
